A study of Rattus norvegicus with 4 samples.

Results

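Striatal dopamine signaling genes are the receptors, neuropeptides and cAMP enzymes with which projection neurons of the striatum respond to dopamine. The 9 genes described here were Drd1, Tac1, Drd2, Penk, Adora2a, Ppp1r1b, Rgs9, Pde10a and Adcy5, found as the rows with these gene symbols, out of 13133 genes by symbol that were listed in all 4 libraries. They were chosen by earlier results of the comparison of BPA with control in these same libraries. Their levels and ratios are therefore given as a description, without a test. Each had 1 row, from 1009 bases long for Tac1 to 7053 for Adcy5, and all 9 passed the filter of a mean FPKM of at least 1. The NCBI Gene IDs of the rows were 24316 for Drd1, 24806 for Tac1, 24318 for Drd2, 29237 for Penk, 25369 for Adora2a, 360616 for Ppp1r1b, 29481 for Rgs9, 63885 for Pde10a and 64532 for Adcy5.

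The striatum sends its output through a pair of projection neuron populations, both GABAergic. Neurons of the direct pathway carry the D1 dopamine receptor, which raises cAMP, and make substance P, while neurons of the indirect pathway carry the D2 receptor, which lowers cAMP, and make enkephalin. Dopamine receptors are also found on neurons of the frontal cortex, the target of the mesocortical dopamine fibers.

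Frontal cortex RNA of newborn rats, Wistar per the labels and Wistar Furth in the methods, was sequenced to ask how prenatal bisphenol A (BPA), a plastic monomer with hormone-like actions, alters expression in either sex. Dams of the BPA male and BPA female groups were given 5000 µg/kg of body weight each day from gestational day 1 to parturition. Dams of the control male and control female groups were given the vehicle, ethanol in corn oil, and all pups were sampled at postnatal day 1 per the labels (1 to 2 in the methods). Meninges were removed at dissection according to the methods, which give 3 pups per sex and treatment for sequencing and qRT-PCR, and whether a library pooled them is not given in the sources used here. Each group had 1 library, so the difference between BPA and control within a sex has no replicate check and compares those libraries, not the conditions. Y-linked Eif2s3y, at an FPKM of 52.8 and 47.2 in the male libraries and 0 and 0.07 in the female ones, went with the sex labels. Y-linked Ddx3y was at 0 and 0.07 in the male and 0.04 and 0 in the female libraries and did not follow the labels. An FPKM of 0.01, the lowest in the files, was taken as 0 and is written so here. An estimated 9250000 and 9179250 fragments stood behind the control and the BPA library of males, and 8949250 and 8995750 behind those of females. Intervals below are 95% intervals from estimated fragments, cover counting error only and leave out the variation between animals.

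In the control libraries, the genes ran from a mean FPKM (fragments scaled to transcript length and library depth) of 2.33 to 25.7. FPKM is a level per transcript length, so it can be compared between genes. Ppp1r1b was the highest, followed by Tac1 at 21.0, Pde10a at 20.1, Adcy5 at 17.7, Penk at 14.2, Adora2a at 6.40, Drd2 at 4.11, Drd1 at 3.06 and Rgs9. Tac1 and Pde10a were not apart in this order, since their control libraries spanned 19.83 to 22.13 and 19.40 to 20.89 FPKM. The control libraries of other neighbors did not overlap, but by counting intervals only Penk and Adora2a, and Adora2a and Drd2, were apart in both controls. The intervals of Drd1 and Rgs9 overlapped in both, those of Ppp1r1b and Tac1 in control male, and those of Pde10a and Adcy5, Adcy5 and Penk, and Drd2 and Drd1 in control female. Set against all genes, Ppp1r1b lay above 74.6% of them in control male, and Rgs9 above 26.0%. The dopamine receptors were thus scarce beside the peptide and cAMP enzyme transcripts. The same order held in both BPA libraries except for Penk, which lay below Adcy5 in both controls and above it in both BPA libraries, and above Tac1 and Pde10a in BPA male by less than counting error.

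**Figure D1:**
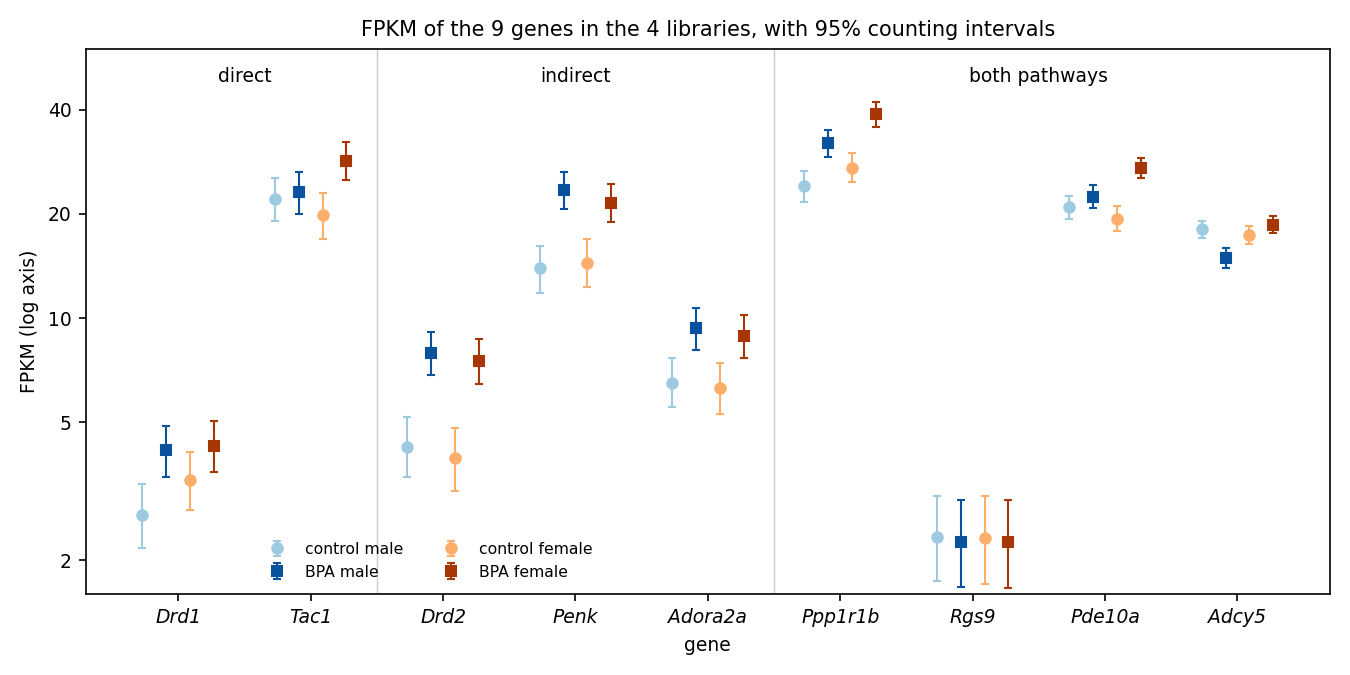
FPKM of each gene on a log axis, 1 point for each of the 4 libraries (circles control, squares BPA), with bars for the 95% counting interval. Drd2, Penk and Adora2a stood higher in both BPA libraries than in both controls, while Rgs9 lay between 2.26 and 2.33 in all 4.

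Levels were higher in both BPA libraries than in both control libraries for 7 of the 9 genes, namely Drd1, Tac1, Drd2, Penk, Adora2a, Ppp1r1b and Pde10a. Of all 10727 genes with a mean FPKM of at least 1, 18.9% were placed so. Rgs9 was lower in both BPA libraries, a placement found for 33.4% of genes, and Adcy5 differed in direction between the sexes. Because this contrast chose the genes, nothing is read from these counts. On the log2(FPKM + 0.5) scale, which understates the change of scarce genes, the median ratio of BPA to control over the 9 genes was 0.40 in the male pair and 0.48 in the female pair, beside -0.04 and -0.05 over all genes. In bulk tissue, more cells of a type and more RNA per cell cannot be told apart.

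Among the receptors and the peptide of the indirect pathway, Drd2 encodes the D2 receptor, which couples to inhibitory G proteins and restrains adenylyl cyclase. Drd2 had an FPKM of 4.25 in the control and 7.93 in the BPA library of males, and 3.96 and 7.51 in those of females. Both BPA libraries thus stood well above both controls. The BPA to control ratio was 1.87 (1.46 to 2.39) in the male pair and 1.90 (1.47 to 2.47) in the female pair, on log2 scale 0.83 and 0.84. These were the highest of the 9 genes in either pair, and 36 and 16 of the 10727 genes had a larger log2 ratio.

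Penk encodes proenkephalin, the precursor of the opioid peptide enkephalin. Penk had an FPKM of 13.92 without and 23.45 with BPA in males and 14.45 without and 21.51 with BPA in females. The control libraries were close to each other and both BPA libraries were higher. Its ratio was 1.68 (1.38 to 2.06) in the male pair and 1.49 (1.21 to 1.82) in the female pair.

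Adora2a encodes the adenosine receptor that stimulates adenylyl cyclase in the same neurons and so opposes the D2 receptor. Its FPKM was 6.52 in control and 9.34 in BPA males, against 6.29 in control and 8.90 in BPA females. The pairs were alike, with ratios of 1.43 (1.15 to 1.77) in males and 1.41 (1.13 to 1.76) in females.

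Of the direct pathway genes, Drd1 encodes the D1 receptor, which stimulates adenylyl cyclase. Drd1 had an FPKM of 2.70 in the control and 4.15 in the BPA library of males, and 3.42 and 4.27 in those of females, from an estimated 90, 137, 110 and 139 fragments in the same order. The BPA libraries were the higher ones, but the control libraries differed from each other by 0.29 on the log2 scale, the widest gap between the control libraries among the 9 genes. The ratio was 1.54 (1.17 to 2.02) in the male pair and 1.25 (0.972 to 1.63) in the female pair, so at this depth the female difference was within counting error.

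Tac1 encodes the precursor of substance P and neurokinin A, peptides released by direct pathway neurons. Its FPKM was 22.13 without and 23.08 with BPA in males and 19.83 without and 28.44 with BPA in females. BPA female was the highest library, although its interval, up to 32.3, reached down into those of both male libraries. The ratio was 1.04 (0.853 to 1.28) in the male pair and 1.43 (1.18 to 1.76) in the female pair. The female ratio exceeded the male by 0.46 in log2 FPKM (0.06 to 0.86), a difference of libraries with 1 per group.

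The other 4 genes are shared by both pathways. Ppp1r1b encodes DARPP-32, a target of protein kinase A that, once phosphorylated, inhibits protein phosphatase 1. Its FPKM was 24.12 in control and 31.97 in BPA males, against 27.23 in control and 38.78 in BPA females. Both BPA libraries were above both controls, and the female library was the higher one under either treatment. The ratio was 1.33 (1.16 to 1.52) in the male pair and 1.42 (1.25 to 1.62) in the female pair.

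Pde10a encodes a striatum-rich phosphodiesterase that degrades cAMP and cGMP. Its FPKM was 20.89 in the control and 22.43 in the BPA library of males, and 19.40 and 27.21 in those of females. BPA female stood above the other 3 libraries, with an interval of 25.4 to 29.1 that lay clear of theirs. The ratio was 1.07 (0.962 to 1.20) in the male pair and 1.40 (1.26 to 1.56) in the female pair, and the female exceeded the male by 0.39 in log2 FPKM (0.17 to 0.60).

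Adcy5 encodes the main adenylyl cyclase of striatal neurons, on which both dopamine receptors act. Its FPKM was 18.04 without and 14.89 with BPA in males and 17.41 without and 18.62 with BPA in females. BPA male was the library apart, below the others. The ratio was 0.825 (0.757 to 0.900) in the male pair and 1.07 (0.983 to 1.16) in the female pair. The female ratio exceeded the male by 0.37 in log2 FPKM (0.20 to 0.55), again a difference of libraries with 1 per group. The combined log2 ratio of Adcy5, -0.09, had a range of -0.24 to 0.07 when each library was left out in turn.

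Rgs9 encodes a protein that speeds the shut-off of inhibitory G proteins and so shortens D2 receptor signals. Its FPKM was 2.33 in control and 2.26 in BPA males, against 2.32 in control and 2.26 in BPA females, from an estimated 51, 49, 49 and 48 fragments in the same order. The libraries were level. The ratio was 0.970 (0.641 to 1.46) in the male pair and 0.974 (0.641 to 1.48) in the female pair, so a change of the size seen for Adora2a lay within counting error in both pairs. With FPKM scaled by the median ratio of libraries, its combined log2 ratio turned from -0.03 to 0.01.

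No member reached an absolute log2 ratio of 1 in either pair. In the male pair 0.214% of the 10727 genes were at least 1 log2 unit higher and 0.951% at least 1 lower, and in the female pair 0.0746% and 1.99%. The male and female counts, 125 and 221 in all, became 211 and 351 with a pseudocount of 0.1, and 72 and 144 with 1. Libraries of the same treatment but opposite sex differed by -0.15 to 0.29 log2 units among the members in controls and by -0.12 to 0.31 with BPA. Over all genes, the median absolute log2 difference between the sexes was 0.106 in controls and 0.117 with BPA. The members were chosen by the treatment contrast, so its size is not set against these differences.

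Direct and indirect pathway genes were then set against each other. The mean log2 ratio of BPA to control was 0.30 in the male and 0.40 in the female pair for Drd1 and Tac1, and 0.68 and 0.62 for Drd2, Penk and Adora2a. The direct pathway mean was thus lower than the indirect by 0.38 in males and 0.23 in females (direct minus indirect, -0.38 and -0.23). Drd2 and Penk lay above both direct pathway genes in either pair, but Adora2a did not. In males Adora2a (0.49) lay below Drd1 (0.54) and above Tac1 (0.06). In females Adora2a (0.47) lay below Tac1 (0.51) and above Drd1 (0.28), so the lower direct pathway gene differed between the pairs. Among the 4 shared genes the mean was 0.05 and 0.26. Together with the other direct and indirect pathway markers described below, direct minus indirect came to 0.00 in males and -0.09 in females, so the gap was smaller over the wider lists. These include the scarce genes Slc35d3 and Gpr6, and with only genes of a mean FPKM of at least 1 the values were 0.06 and -0.05. The wider direct list also holds Ebf1, already seen when the lists were written, at log2 ratios of 1.10 in males and 1.14 in females. In females the narrowing of the gap came mostly from Ebf1. In males it came mostly from the other added markers, and the added indirect ones were at -0.17 (Gpr52), 0.14 (Sp9), -0.32 (Grik3) and 1.05 (Gpr6). Because the members were chosen by the treatment contrast and Ebf1 had been seen, the narrowing is not read as a result about the pathways in either sex.

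Within each library, the FPKM of Drd1 divided by that of Drd2 compares the pathways without reference to another library. The Drd1 to Drd2 ratio was 0.635 (0.471 to 0.846) in the control and 0.523 (0.416 to 0.652) in the BPA library of males, and 0.864 (0.650 to 1.15) and 0.569 (0.454 to 0.716) in those of females. It was lower with BPA in both sexes, with overlapping intervals. The Tac1 to Penk ratio was 1.59 (1.28 to 1.97) without and 0.984 (0.816 to 1.19) with BPA in males and 1.37 (1.10 to 1.71) without and 1.32 (1.10 to 1.59) with BPA in females. Tac1 exceeded Penk in 3 of the libraries and matched it in BPA male, in the pair in which the ratio to control was 1.68 for Penk and 1.04 for Tac1.

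The next comparison took other marker genes of striatal projection neurons, many of which are also expressed in cortical and other neurons. The test was limma with the sexes as replicates of a treatment and Benjamini-Hochberg adjustment over 10727 genes, and its p-values measure only the spread between these 4 libraries. Male and female pups of a treatment may come from the same litters, which the fit does not take into account. Limma called 68 genes higher with BPA (0.634%) and 399 lower (3.72%), and without adjustment p was under 0.05 for 2255. It called 143 and 299 with FPKM scaled by the median ratio of libraries, 231 and 720 with sex as a term, and 14 and 60 with every listed row on its own. With no filter on low FPKM it called 0 genes, with 2424 at an unadjusted p under 0.05, and losses of a call named below come on top of this one. Of 29 marker symbols 27 were measured, 24 of them with a mean FPKM of at least 1. Limma called 5 of the 24 higher and 0 lower, and without adjustment p was under 0.05 for 9 in the higher and 1 in the lower direction. The lists were written when Rxrg and Ebf1 had already been seen, so these counts are no independent evidence of direction. The median log2 ratio of the 24 was 0.11 in the male and 0.17 in the female pair.

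Rxrg, a retinoid receptor that pairs with other nuclear receptors, had an FPKM of 6.11 in control and 24.56 in BPA males, against 8.00 in control and 26.17 in BPA females. It rose by a log2 ratio of 1.79 (SE 0.13, limma adjusted p = 2.17e-04), above the log2 ratio of every member. Ebf1, a transcription factor of maturing direct pathway neurons, had an FPKM of 1.59 in the control and 3.99 in the BPA library of males, and 1.53 and 3.96 in those of females. Its log2 ratio was 1.12 (SE 0.18, limma adjusted p = 0.00990), and in both genes the BPA libraries lay far above the controls. Ikzf1, a transcription factor of maturing indirect pathway neurons and of blood cells, was too scarce for the test, at 0.61 and 0.94 FPKM in the male pair and 0.23 and 1.64 in the female pair.

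The retinoic acid receptor Rarb had a log2 ratio of 0.58 (limma adjusted p = 0.0320), which missed the threshold without control male, BPA male or BPA female and ranged from 0.0133 to 0.147 over the 11 alternatives. Arpp21, a cAMP-regulated phosphoprotein, had one of 0.48 (limma adjusted p = 0.0138), lost without BPA female, with p from 0.00137 to 0.123. Foxp1, a transcription factor of striatal and cortical neurons named here after its values were seen, had a log2 ratio of 0.47 (limma adjusted p = 0.0123). All 3 were higher with BPA in both pairs. The most abundant marker, the homeobox gene Meis2, had a mean FPKM of 132 and a combined log2 ratio of 0.00.

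Few of the other direct and indirect pathway markers passed the test. Of 5 tested direct pathway markers limma called Ebf1 alone, with 2 higher and 0 lower at an unadjusted p under 0.05. The most abundant, the mitochondrial serine transporter gene Sfxn1, had a log2 ratio of -0.12 (limma adjusted p = 0.349). Of 3 tested indirect pathway markers limma called 0, with 0 at an unadjusted p under 0.05. The kainate receptor gene Grik3 had a log2 ratio of -0.20 (limma adjusted p = 0.275), and the receptor gene Gpr6 was scarce, at 0.15 and 0.85 FPKM in the male pair and 0.62 and 0.61 in the female pair. Over all 24 markers, 45.8% were higher and 20.8% lower in both BPA libraries than in both controls (18.9% and 33.4% of all genes), the lower ones being Sfxn1, Grik3, Rasgrp2, Actn2 and Zfp503, of which the last 3 are named after their values were seen.

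**Figure D2:**
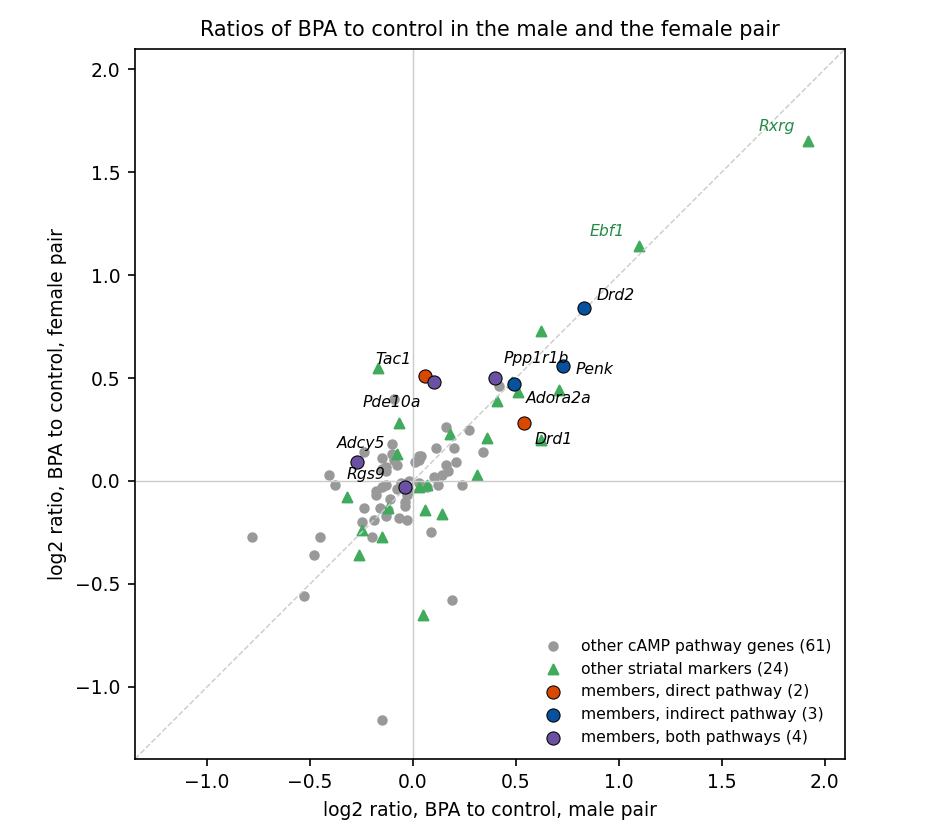
Log2 ratio of BPA to control in the male pair (x axis) and the female pair (y axis), 1 point per gene, for the 9 members, 24 other striatal markers and 61 other cAMP pathway genes, with a dashed line of equal ratios. Rxrg, Ebf1 and Drd2 lie at the upper right near the line, Tac1 and Pde10a lie above it, and most cAMP pathway genes lie near 0.

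Next, the remaining genes of the dopamine and cAMP pathway were compared, from receptors down to phosphodiesterases. Of 71 symbols 65 were measured and 61 had a mean FPKM of at least 1. Limma called 2 of the 61 higher and 1 lower, and without adjustment p was under 0.05 for 4 and 6, beside 2255 of all 10727 genes. The median log2 ratio was -0.07 in males and -0.02 in females, close to that of all genes at -0.04 and -0.05. Both BPA libraries lay above both controls for 19.7% of the 61 and below for 31.1%, near the 18.9% and 33.4% of all genes.

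Among the other dopamine receptors, Drd3 and Drd5 had a mean FPKM under 1, and Drd4 was not analysed here. Drd5, the other receptor of the D1 class, had the higher mean of these, at 0.24 without and 0.08 with BPA in males and 0.57 without and 0.08 with BPA in females. Drd3 was at 0.08 in BPA male and 0.16 in BPA female, so Drd5 was the higher only in the controls. Drd1 and Drd2 were thus the measured dopamine receptors with a mean FPKM of at least 1. Of 12 genes of G protein subunits and a chaperone of these limma called 0, with 2 higher at an unadjusted p under 0.05. Gnas, the stimulatory alpha subunit found in most cells, was the most abundant at a mean FPKM of 752, with a log2 ratio of 0.05 (limma adjusted p = 0.740).

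Of the 6 tested adenylyl cyclases other than Adcy5, limma called 0, with 1 lower at an unadjusted p under 0.05. Adcy1, the calcium-stimulated form, was the most abundant at a mean FPKM of 88.5 and had a log2 ratio of 0.08 (limma adjusted p = 0.658). None of the 6 protein kinase A subunits was called by limma, and 0 had an unadjusted p under 0.05. Their most abundant gene, the regulatory subunit Prkar1b, had a mean FPKM of 211 and a log2 ratio of 0.08 (limma adjusted p = 0.509).

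Among 12 tested protein phosphatases and regulators, limma called Cdk5r1 higher, which encodes the activator of the kinase Cdk5. Cdk5r1 had an FPKM of 121.78 in control and 146.74 in BPA males, against 127.44 in control and 151.16 in BPA females. The call, at an adjusted p of 0.0494 by limma for a log2 ratio of 0.26, was lost without any 1 of the 4 libraries and with a pseudocount of 0.1, with p from 0.00768 to 0.253 over the 11 alternatives. Ppp2ca, a catalytic phosphatase subunit and the most abundant of the list at 183, had a log2 ratio of 0.14 (limma adjusted p = 0.246).

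Of 10 tested phosphodiesterases other than Pde10a, limma called Pde1a lower, a calcium-stimulated enzyme. Pde1a had an FPKM of 16.29 in the control and 9.30 in the BPA library of males, and 13.45 and 11.03 in those of females. Its log2 ratio was -0.53 (limma adjusted p = 0.0475), lost with scaled FPKM, with a filter at a mean FPKM of 5 and without either male library, with p from 0.0181 to 0.206. Pde2a, the most abundant phosphodiesterase at a mean FPKM of 39.2, had a log2 ratio of -0.07 (limma adjusted p = 0.629).

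Among 15 RGS proteins, arrestins and receptor kinases, limma called Rgs8 higher, a regulator of G protein signaling. Rgs8 had an FPKM of 8.67 without and 11.77 with BPA in males and 9.10 without and 12.71 with BPA in females. Its log2 ratio of 0.44 (limma adjusted p = 0.0494) was higher in both pairs, whereas Rgs9 was level. The call was lost without any 1 of the 4 libraries and with a filter at a mean FPKM of 5, with p from 0.0243 to 0.166. Rgs14 had an FPKM of 1.05 and 0.90 in the male pair and 1.96 and 0.60 in the female pair (limma adjusted p = 0.246). The receptor kinase Adrbk1, the most abundant at 44.1, had a log2 ratio of -0.04 (limma adjusted p = 0.788).

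Receptors for the peptides of Penk and Tac1 were scarce. Of the 6 opioid and tachykinin receptors 3 had a mean FPKM of at least 1, and limma called 0 of these, with 0 at an unadjusted p under 0.05. The substance P receptor gene Tacr1 was the most abundant at a mean FPKM of 2.34, with a log2 ratio of 0.10 (limma adjusted p = 0.831).

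Of 11 genes of dopamine synthesis, transport, breakdown and midbrain identity, 7 were measured and 5 tested. Limma called Maoa lower, which encodes a monoamine oxidase. Maoa had an FPKM of 28.13 in control and 22.08 in BPA males, against 26.42 in control and 20.46 in BPA females, a log2 ratio of -0.35 (limma adjusted p = 0.0465). The call was lost without any 1 of the 4 libraries and with scaled FPKM, with p from 0.0151 to 0.187. Th, the rate-limiting enzyme of dopamine synthesis, is named here after its values were seen, at an FPKM of 0.89 in the control and 0.25 in the BPA library of males, and 0.72 and 0.39 in those of females. Slc6a3, Pitx3, Foxa2 and En1 were not analysed here.

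Markers of the cells that frontal tissue can hold were set beside these values. The label of the tissue went with 10 measured markers of cortical projection neurons out of 12, all with a mean FPKM of at least 1, of which the most abundant was Neurod6 at 234, while Cux1 and Emx1 were not analysed here. Their summed FPKM was 570 without and 609 with BPA in males and 565 without and 598 with BPA in females. Limma called 1 higher, the transcription factor Neurod2 (log2 ratio 0.50, adjusted p = 0.00474). The list's 2 lower genes were the vesicular glutamate transporters Slc17a7 (-0.79, limma adjusted p = 0.00112) and Slc17a6 (-0.71, limma adjusted p = 0.00759). The calls among cortical markers thus lay in both directions. The members were chosen by the BPA contrast, so their direction is not set against that of these markers.

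Markers of the lateral ganglionic eminence, the embryonic source of striatal projection neurons, and of GABA neurons were measured for 9 of 10. Their summed FPKM was 123 in control and 109 in BPA males, against 121 in control and 108 in BPA females, and the most abundant was Dlx1. Limma called 2 of 7 tested lower, namely Dlx1 (log2 ratio -0.38, adjusted p = 0.0296) and the GABA-synthesizing enzyme Gad1 (-0.36, limma adjusted p = 0.0364), both lost with scaled FPKM. The p ranged from 0.0102 to 0.126 for Dlx1, lost without control male, BPA male or control female, and from 0.0142 to 0.137 for Gad1, lost without any 1 library. The eminence gene Gsx1 was scarce, at 0.60 and 0.15 FPKM in the male pair and 0.15 and 0.92 in the female pair.

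All 8 markers of striatal interneurons were measured, summing to an FPKM of 30.9 in the control and 29.3 in the BPA library of males, and 31.7 and 27.5 in those of females. Lhx6, which cortical interneurons share, was the most abundant at 14.8, with a log2 ratio of 0.21 (limma adjusted p = 0.244). Chat, the acetylcholine-synthesizing enzyme that defines cholinergic interneurons, was at 0 in BPA male and control female and at 0.06 and 0.03 FPKM in control male and BPA female. Gbx2 was at 0 in BPA male. Limma called 0 of the 2 tested, with 1 lower at an unadjusted p under 0.05.

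Most meningeal genes and the olfactory bulb gene Cdhr1 had larger absolute log2 ratios than any member, which is given as a description. Of 8 meningeal genes, all measured, limma called 7 lower, and their summed FPKM was 440 without and 200 with BPA in males and 576 without and 137 with BPA in females. Ptgds, a prostaglandin synthase and the most abundant at 177, fell from 214.04 to 109.08 in the male pair and from 320.00 to 66.86 in the female pair (log2 ratio -1.61, limma adjusted p = 0.00396). Collagen gene Col1a1 (-1.51, limma adjusted p = 2.85e-04), Lum (-1.50, limma adjusted p = 0.00622) and Igf2 (-1.88, limma adjusted p = 7.36e-05) were also lower, and Foxc1, the gene not called, had an adjusted p of 0.0564 by limma.

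Of 4 olfactory bulb projection neuron genes 3 were measured, with a summed FPKM of 74.0 in control and 47.7 in BPA males, against 86.2 in control and 47.2 in BPA females. Cdhr1, a cadherin of mitral and tufted cells, had an FPKM of 41.10 in control and 10.77 in BPA males, and 44.48 and 9.29 in females (log2 ratio -2.04, limma adjusted p = 1.30e-05). Tbx21 had an FPKM of 1.74 in control male and 0.85 in control female, was at 0 in BPA male and at 0.05 in BPA female. Reln, the most abundant at 36.7 and shared with cortical neurons, had a log2 ratio of 0.07 (limma adjusted p = 0.769). Cdhr1 and 7 meningeal genes were thus called lower in the same BPA libraries in which most members were higher, and their part in the members' differences was not tested.

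The calls of limma among astrocyte, radial glia and hemoglobin genes were in the lower direction. Limma called 4 of 6 astrocyte and radial glia genes lower, with a summed FPKM of 698 in the control and 588 in the BPA library of males, and 692 and 508 in those of females. The most abundant, Fabp7 at 472, had a log2 ratio of -0.32 (limma adjusted p = 0.0676), and the water channel gene Aqp4 had one of -0.72 (limma adjusted p = 0.00662). The other called genes were Gfap (-0.70, limma adjusted p = 0.0412, 0.0103 to 0.168 over the alternatives), Slc1a3 (-0.39, limma adjusted p = 0.0128, 0.00133 to 0.119) and Slc1a2 (-0.39, limma adjusted p = 0.0350, 0.0133 to 0.186). Gfap was lost without control male, control female or BPA female, Slc1a3 without control female, and Slc1a2 without any 1 library and with scaled FPKM.

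The 6 blood and vessel genes, led by the hemoglobin gene Hbb at 434, summed to 631 in control and 558 in BPA males, against 599 in control and 463 in BPA females. Limma called 1 lower, the hemoglobin gene Hbb-b1 (-0.77, adjusted p = 0.00786), whose reads may be shared with its near-identical copies. Of 5 choroid plexus genes Ttr was not analysed here, and the other 4 summed to 0.850 in the control and 0.990 in the BPA library of males, and 1.46 and 0.520 in those of females. They were led by Aqp1 at 0.763 (1.18 in control female), and Folr1 in both controls and Kl in control male were at 0. The part of the glial, blood and vessel genes in the members' differences was not tested.

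The 10 genes whose 4 levels were most like the mean profile of the members were found by the Euclidean distance between log2(FPKM + 0.5) values, each centered on its gene's mean, over the 4 libraries. They were Ube2ql1 and Zfp639 at a distance of 0.025, Pou6f1 at 0.045, Csrnp2 and Ddx51 at 0.054, Rfxap at 0.055, Ephb1 and Spag4 at 0.056, Gpc5 at 0.058 and Ctdp1 at 0.060. The closest, Ube2ql1, had an FPKM of 48.27 without and 59.98 with BPA in males and 49.04 without and 65.88 with BPA in females. The members themselves lay between 0.162 (Pde10a, with 221 genes outside the members closer) and 0.494 (Drd2, with 6175 closer) from that mean.

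Promoter sequences from RefSeq, assembly GRCr8, matched 6 of the 9 genes, namely Drd1, Tac1, Drd2, Rgs9, Pde10a and Adcy5, with 7 windows because Pde10a has 2. The genes lie on 6 different chromosomes. No promoter was matched for Penk, Adora2a and Ppp1r1b. The 250 bases before each start were searched on both strands for the cAMP response element TGACGTCA and its core TGACG, the AP-1 site TGANTCA, the TATA box TATAAA, the GC box GGGCGG and the EBF palindrome CCCNNGGG. TGACG is part of TGACGTCA, so these overlap. TGACGTCA was in 0 of the 7 windows and in 1.59% of all 33469 promoters, and TGACG was in 2 windows, of Tac1 and the first of Pde10a, and in 18.2% of promoters. The GC box was in 4 windows (30.5% of promoters), of Drd2, Rgs9, Adcy5 and the second of Pde10a. The EBF palindrome was in 2 windows, of Adcy5 and the first of Pde10a (10.8%), and the AP-1 site (6.34%) and TATA box (12.9%) were in 0. A match is a description of letters, not of a bound site. The windows of Drd2, the member with the highest ratios, and of Tac1 and Pde10a (first window), the pair higher mainly in BPA female, are printed 5′ to 3′ with matches in capitals, at chr8:58605153-58605402 (plus strand), chr4:36645333-36645582 (plus strand) and chr1:54765669-54765918 (minus strand).
Drd2: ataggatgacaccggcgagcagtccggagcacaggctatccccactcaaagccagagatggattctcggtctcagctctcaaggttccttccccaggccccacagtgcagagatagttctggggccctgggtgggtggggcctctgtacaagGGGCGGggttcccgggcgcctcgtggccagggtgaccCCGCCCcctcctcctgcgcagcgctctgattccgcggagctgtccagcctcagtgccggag
Tac1: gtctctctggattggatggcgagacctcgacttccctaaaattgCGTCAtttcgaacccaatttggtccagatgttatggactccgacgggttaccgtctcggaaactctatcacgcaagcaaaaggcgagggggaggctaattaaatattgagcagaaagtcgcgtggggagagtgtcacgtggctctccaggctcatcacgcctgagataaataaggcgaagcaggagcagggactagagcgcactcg
Pde10a: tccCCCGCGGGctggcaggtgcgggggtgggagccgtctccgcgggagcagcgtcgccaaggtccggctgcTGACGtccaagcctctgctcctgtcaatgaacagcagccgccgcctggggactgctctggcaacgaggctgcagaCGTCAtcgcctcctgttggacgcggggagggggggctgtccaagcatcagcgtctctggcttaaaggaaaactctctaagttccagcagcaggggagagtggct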

How the data were processed

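RNA of the frontal cortex was sequenced in 4 libraries, 1 per sex and treatment. The authors mapped reads to the rat genome (rn6) with Bowtie2 and computed expression with RSEM, their processing notes also name HISAT, and versions are not given in the sources used here. Per the file headers the values are FPKM, which the authors deposited scaled to transcript length and depth, with 2 decimals and a lowest value of 0.01 that was taken as 0.

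FPKM was summed by gene symbol over rows listed in all 4 libraries (16182 of 17419). Symbols came from the files for 14004 rows, through the Gene ID for 3 and through a protein accession in a RefSeq table (GRCr8, names only) for 272. The 3140 rows with no symbol were left out. Log2 ratios are differences of log2(FPKM + 0.5), BPA minus control, unless named as log2 FPKM, and ratios given with intervals are quotients of FPKM. Limma 3.58.1 (R 4.3.3, prior variance with a trend, a term for treatment only, 2 residual degrees of freedom, threshold 0.05 after Benjamini-Hochberg adjustment) was run on genes with a mean FPKM of at least 1. The fit was tested on simulated data. Per sex, a log2 ratio of at least 1 was counted as past the threshold, without a test. The values of 1 cell type marker list are not reported here.

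Depth was recovered as the fragment number that brings the product of FPKM and effective length, taken as 60 bases under the full length, nearest to integers. Of 1417 to 1474 scarce rows per library, 84.6% to 86.2% came within 0.1 of a whole number, against 20% by chance. The recovery was also tested on simulated data. Fragments of a member carry the rounding of its FPKM. Intervals of levels are exact Poisson and those of ratios exact Clopper-Pearson intervals, and those of the difference between 2 log2 ratios a normal approximation, each at 95% and from fragments.

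The members and lists were chosen with earlier results of these data known. Named genes are the members, from each list up to 4 genes called by limma or past a log2 ratio of 1 in a pair, by the largest absolute mean log2 ratio, plus its most abundant gene, and the 10 nearest profiles. Alternatives were other pseudocounts and filters, scaled FPKM, sex as a term, rows with a Gene ID only, each library left out, wider pathway lists and, chosen after seeing the data, every row on its own and the wider lists without scarce genes. Python 3.11.15, scipy 1.17.1, pandas 2.3.3, numpy 2.4.6 and matplotlib 3.10.9 were used.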

Additional observations from a re-analysis of the deposited data

Results flagged for a closer look

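Among the members and the genes chosen by the naming rule, 7 had a BPA to control ratio above 1 in the pair of one sex and below 1 in the pair of the other. With 1 library per group these differences between the sexes were not tested. Adcy5, the adenylyl cyclase among the members, had a log2 ratio of -0.27 in males and 0.09 in females, a difference of 0.36. The scarce receptor gene Gpr6 had 1.05 and -0.01, a difference of -1.07, and the scarce eminence gene Gsx1 had -0.76 and 1.13, a difference of 1.89. The hemoglobin gene Hba-a1 had 0.17 and -1.26, a difference of -1.44, and Reln had 0.24 and -0.11, a difference of -0.35. Gnas, with 0.12 and -0.02, differed by -0.14, and Meis2, with 0.03 and -0.03, by -0.06. Slc35d3 (0.71 and -0.39), Chat (-0.16 and 0.08) and Kl (0.33 and -0.25), named only as scarce, also differed in direction.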

How the results depend on the processing

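The fit with sex as a term compares BPA with control within each sex, and so is the paired form of the test. The median log2 ratio of the members lay between 0.39 and 0.44 in males and between 0.47 and 0.54 in females, the last with scaled FPKM. Direct minus indirect stayed at -0.38 in males and between -0.24 and -0.21 in females with other pseudocounts, and was 0.00 and -0.09 with the wider pathway lists, or 0.06 and -0.05 with their genes of a mean FPKM of at least 1. The values over the wider lists rest in part on Ebf1, which had been seen before. Of the members, 7 had the same sign in all 7 alternatives, while Rgs9 turned to 0.01 with scaled FPKM and Adcy5 reached 0.07 with a library left out. In those 7 genes both BPA libraries lay above both controls. Neither another pseudocount nor a left-out library could therefore turn their sign, and nothing is read from this count.

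Limma called 68 genes higher and 399 lower. It called 0 and 0 with no filter on low FPKM, where 2424 had an unadjusted p under 0.05, so every list call named above was lost there. It called 143 higher with scaled FPKM, 231 higher and 720 lower with sex as a term, and 14 and 60 with every listed row on its own. With each library left out in turn it called 39 to 50 higher (39 without control male, 40 without control female, 41 without BPA female) and 169 to 373 lower (169 without control female, 245 without BPA female), a fit in which the lone library of a treatment is assumed to vary like the other pair. Genes past a log2 ratio of 1 numbered 125 in the male and 221 in the female pair. They numbered 211 and 351 with a pseudocount of 0.1, 72 and 144 with 1, 199 in males with no filter, and 404 and 539 with every row on its own. The cause of these changes was not tested. With 48 to 192 estimated fragments per library, Rgs9, Drd1 and Drd2 were limited most by depth.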
